A study of Homo sapiens with 4 samples.

Results

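The 40 genes described here serve mitosis and the G2/M transition, the step from the second gap phase of the cell cycle into division. They were taken as a list of named genes with roles from CDK1 activation to cytokinesis, and their values were read by name from the transcript estimates of each library. All 40 were found among the 23004 gene names of the files, and all 40 lay among the 12407 genes with a mean of at least 1 FPKM (fragments per kilobase and per unit of mapped library depth, a level per length) that were tested. The cells were BEAS-2B, an immortalized human bronchial epithelial line, exposed to 100 µM formaldehyde for 48 h or left untreated. There were 2 libraries of total RNA in each group, named formaldehyde 1 and 2 and untreated 1 and 2 after the replicate numbers of their labels. Nothing in the labels says whether the libraries came from separate cultures, so a p-value here rests on the spread among libraries of 1 cell line, and that spread can be technical.

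Cells enter mitosis when CDK1, held by cyclin B and freed of inhibitory phosphate by CDC25 phosphatases, outruns its brakes, with the Polo-like and Aurora kinases as partners. Kinetochores then tie chromosomes to the spindle, the spindle checkpoint holds the anaphase-promoting complex until every chromosome is attached, and motors, midzone proteins and a contractile ring complete division. Transcripts of these genes are low in G1 and build up through G2, under the DREAM complex, which represses them in resting cells, and MYB-MuvB with FOXM1, which activate them in G2. Both read the CHR (cell cycle genes homology region) element in promoters, often beside CCAAT boxes bound by NF-Y. Bulk RNA cannot tell fewer cells in G2 or mitosis apart from less of such RNA per cell.

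The libraries held 14.2 and 22.2 M fragments (M, mega) in formaldehyde 1 and 2 and 16.8 and 26.5 M in untreated 1 and 2. Of the epithelial markers, KRT8 stood at 447 and 416 FPKM in formaldehyde 1 and 2, against 291 and 290.4 FPKM in untreated 1 and 2, while the basal markers KRT5 and TP63 were listed at 0 in all 4 libraries and CDH1 did not exceed 0.631 FPKM. The summed level of the epithelial list, 11 of its 12 genes being in the files, was 1400.4 and 1204 FPKM with formaldehyde, against 736 and 819 FPKM without. Of its 5 genes that were tested, 4 were higher with formaldehyde on the mean of log2(FPKM + 1). The other, KRT17, had 61.2 and 48.04 FPKM with formaldehyde, against 26.4 and 178 FPKM without. The leukocyte gene CD3E was listed at 0 throughout and PTPRC stayed at or under 0.0232 FPKM, although the whole list of 8 summed to 51.7 and 32.6 FPKM with formaldehyde, against 18.4 and 31.3 FPKM without, mostly CD68. The 4 endothelial genes summed to at most 0.192 FPKM, and the 8 mesenchymal genes, VIM and COL1A1 above all, to 1188 and 1063 FPKM, against 1083 and 1241 FPKM. Of the 3 mesenchymal genes tested, VIM was higher with formaldehyde, at 1043 and 786 FPKM, against 782 and 642 FPKM. COL1A1, at 137 and 254 FPKM, against 279 and 568 FPKM, and PDGFRB were lower. Nuclear and small RNAs, 13 of the 16 listed, summed to 657 and 413 FPKM, against 315 and 747 FPKM, so the groups overlapped. The part of these marker levels in the results below was not tested.

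On the mean of log2(FPKM + 1), the scale of every count of lower or higher genes below, 38 of the 40 mitotic genes were lower with formaldehyde, where 44.9% of all genes tested were lower, but no member passed the test. AURKA and CDC20 were the exceptions on that scale, and on mean FPKM CDC20 alone. The count was 39 after rescaling by median ratios, which turned AURKA, and 40 after quantile normalization, which turned both. As a difference of formaldehyde minus untreated on that scale, the members' median was -0.24 beside 0.030 for all genes tested. The differences ran from -0.59 for ASPM to 0.064 for CDC20, and the ratio of mean FPKM from 0.632 to 1.03 with a median of 0.824. With limma's moderated test and Benjamini-Hochberg adjustment over all 12407 genes, 0 of the 40 were called, every member having an adjusted p of 0.9999. At an unadjusted p under 0.05 the count was also 0, the lowest being 0.059 for MKI67. Over all genes, the adjusted call was made for 0.0725% of genes as lower and 0.0806% as higher with formaldehyde, and the unadjusted one for 0.838% and 1.93%. With 2 libraries against 2, a two-sided exact permutation test of a single gene cannot go below p = 0.3333.

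For 14 of the 40 genes, or 35.0%, each formaldehyde library was below each untreated library, beside 10.7% of all genes tested. The reverse, both formaldehyde libraries above, held for 0 members and for 16.2% of all genes. The 14 were CDC25B, AURKB, BUB1B, CENPE, CENPF, KIF11, KIF20A, KIF23, NUSAP1, ASPM, PRC1, ANLN, MKI67 and TOP2A, drawn from 8 of the 9 functional classes. The count was 20 after rescaling by median ratios and 20 after quantile normalization, beside 13.4% and 12.6% of all genes. With a library left out, fewer values can overlap, so the share over all genes differs too. The count was 23 without formaldehyde 2, beside 29.7% of all genes, and 39 without untreated 2, beside 34.7%. Without untreated 1 it was 14, beside 28.1%, and 16 other members then had the formaldehyde libraries above, beside 47%.

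**Figure D1:**
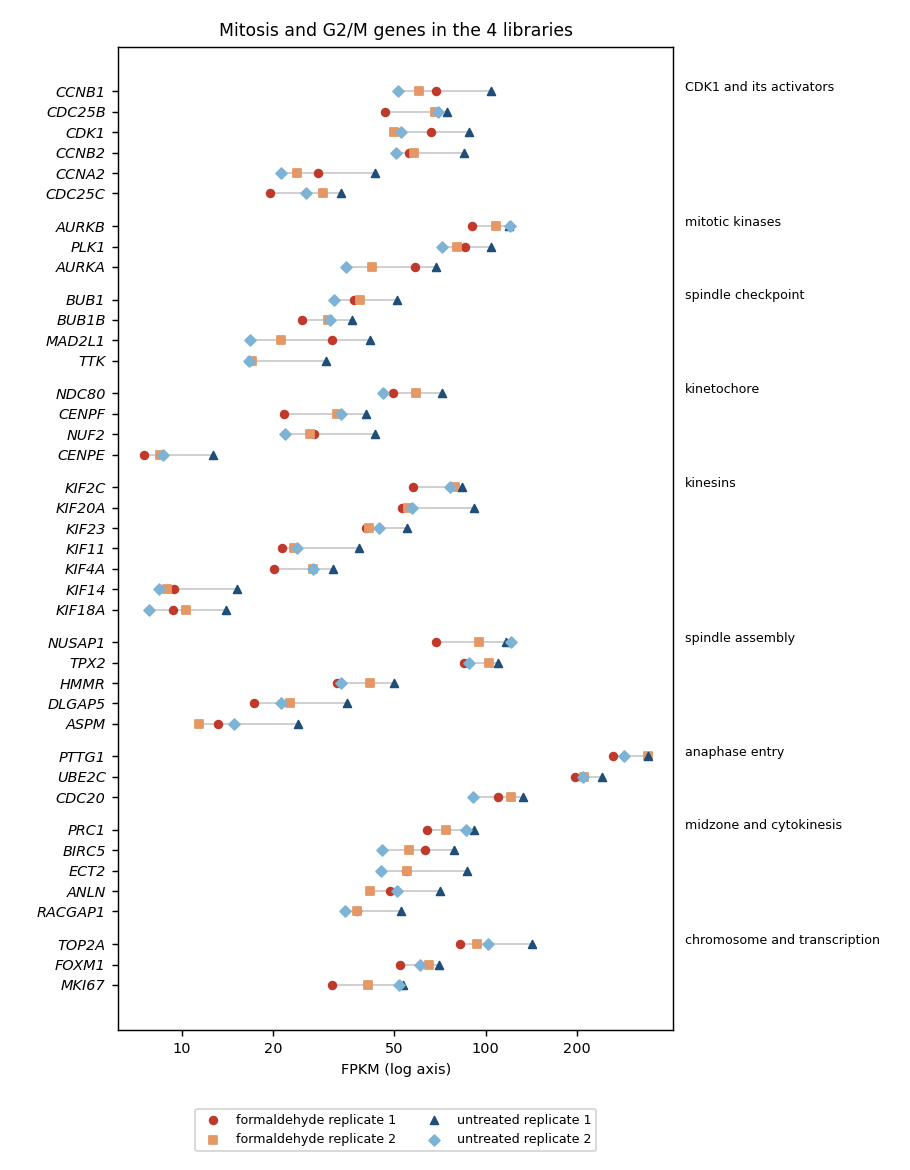
FPKM (log axis) of the 40 mitotic genes in each of the 4 libraries, grouped by function; circles and squares are formaldehyde 1 and 2, triangles and diamonds untreated 1 and 2, and a grey line spans the lowest to the highest library. Untreated 1 is the rightmost symbol for 37 of the 40 genes, and the formaldehyde symbols both lie left of both untreated symbols for 14.

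Untreated 1 was the library that stood apart for these genes. It was the highest of the 4 for 37 of the 40, or 92.5%, beside 29.4% of all genes tested, and lay above untreated 2 for 38, or 95%, beside 58.3%. The exceptions in the second comparison were AURKB and NUSAP1, and PTTG1 had its highest value in formaldehyde 2. The summed level of the 40 genes was 2166 and 2413 FPKM in formaldehyde 1 and 2, against 3079 and 2293 FPKM in untreated 1 and 2. The FPKM of untreated 1 over that of untreated 2 had a median ratio of 1.48 and reached 2.49 for MAD2L1. Of the 40, 23 have 1 transcript in the files, and for 22 of them the intervals in the authors' deposited table did not overlap between the untreated libraries, with untreated 1 above in all 22. For CCNB1, cyclin B1, that deposited interval was 101 to 108 FPKM in untreated 1 and 49.5 to 53.5 FPKM in untreated 2. Fragments behind a value of these 23 genes numbered 435 to 14934, with a median of 2606. The deposited intervals narrow as fragments rise, and each covers a single library. Their overlap was not counted over all genes, so the count of 22 cannot be called particular to the members.

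Set against the library of the same number, formaldehyde 1 was lower than untreated 1 for all 40 genes, where 53.5% of all genes tested were lower. Formaldehyde 2 was lower than untreated 2 for 15 of the 40, or 37.5%, beside 37.3% of all genes. The median difference was -0.56 for number 1, beside -0.027 over all genes tested, with a range of -0.98 for DLGAP5 to -0.22 for AURKA. For number 2 it was 0.082, beside 0.095 over all genes, with a range of -0.35 for NUSAP1 to 0.40 for CDC20. So 25 genes were lower in the number 1 comparison and higher in the number 2 comparison, and 15 were lower in both. Over all 12407 genes tested, 3815 had the first pattern and 2801 the second. The medians over all genes also apply to the class medians by number given below. The 15 were CDK1 and the 14 genes named above whose groups did not overlap. Groups apart with formaldehyde lower make a gene lower in both number comparisons, so those 14 were bound to be among the 15. Without untreated 1, 20 of the 40 genes were lower with formaldehyde and the median was -0.012, and the other 20 were CDK1, CCNA2, CCNB1, CCNB2, PLK1, AURKA, BUB1, MAD2L1, TTK, NDC80, NUF2, KIF14, KIF18A, TPX2, HMMR, CDC20, PTTG1, BIRC5, ECT2 and RACGAP1. By contrast, without untreated 2 all 40 were lower and the median was -0.47. Leaving out formaldehyde 1 or formaldehyde 2 gave -0.18 and -0.29, with 35 and 37 members lower. Over all genes tested the median was 0.089 without untreated 1 and -0.017 without untreated 2. It was 0.029 without formaldehyde 1 and also without formaldehyde 2. How many of all genes were lower in these settings was not counted. By function, the median level of untreated 1 was above that of the other 3 libraries in all 9 classes, whereas the order of the other 3 varied between classes.

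**Figure D2:**
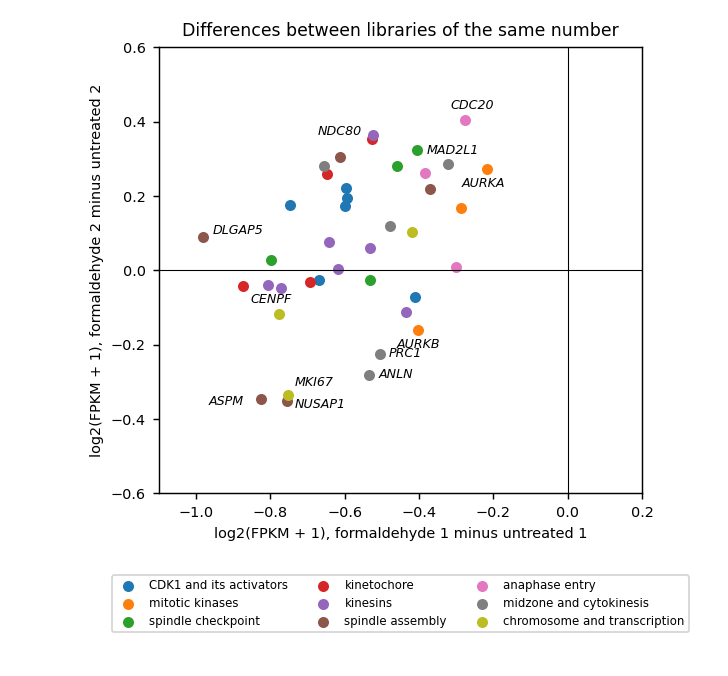
Difference in log2(FPKM + 1) between formaldehyde and untreated libraries numbered 1 (horizontal axis) and numbered 2 (vertical axis), 1 point per mitotic gene, coloured by function. All 40 points lie left of 0, and 15 lie below 0 on the vertical axis, with NUSAP1, ASPM and MKI67 lowest.

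**Figure D3:**
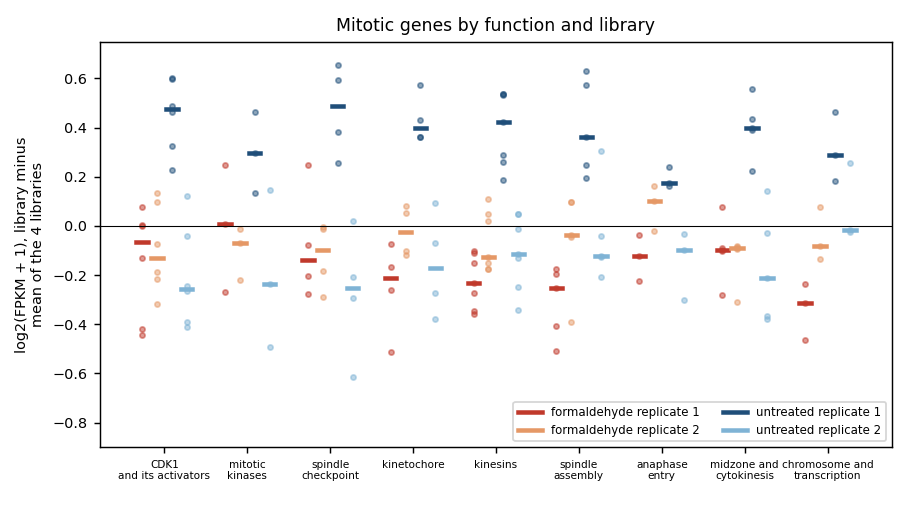
log2(FPKM + 1) of each mitotic gene minus its mean over the 4 libraries, by function; points are genes and bars are class medians, with formaldehyde 1 and 2 left of untreated 1 and 2 in each class. The bar of untreated 1 is the highest in all 9 classes.

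Promoter windows show what the members share in sequence. The CHR and CCAAT motifs were searched because they are known elements of G2/M promoters. A higher share in these genes was therefore to be foreseen. RefSeq windows (GRCh38.p14), 250 bases before to 50 after an annotated start, were matched by symbol for 33 of the 40 genes and gave 43 windows. CHR letters (TTTGAA or TTCGAA on either strand, so also TTCAAA) stood in 67.4% of member windows and 16.4% of all 35116 windows. CCAAT boxes (CCAAT, or ATTGG on the other strand) stood in 74.4% and 34.6%, and both motifs in 55.8% and 6.38%. The third motif searched, GGCGG or CCGCC, stood in 97.7% of member windows and 59.0% of all. In 1 member window a CHR and a CCAAT match share a base. The median GC content was 61.3% in member windows and 58.7% in all windows. CHR matches had a median position of -28 relative to the start over 41 matches and CCAAT matches of -79 over 65. A match is only a run of letters, and no binding was measured.

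**Figure D4:**
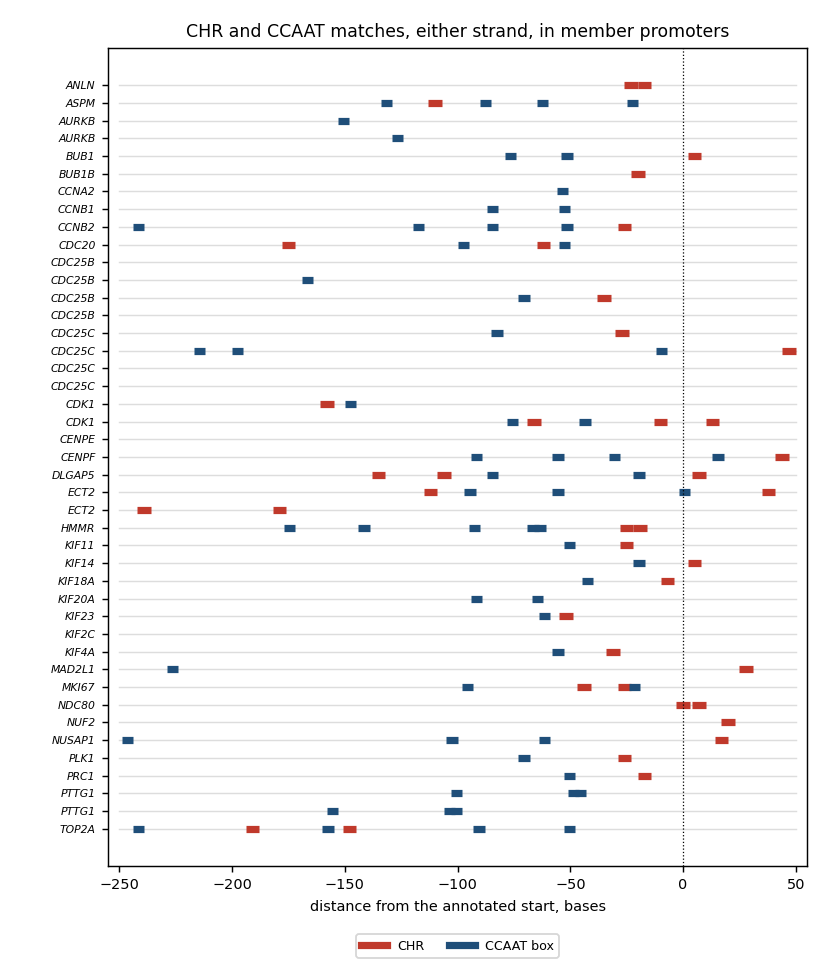
Positions of CHR and CCAAT matches on either strand, in bases from the annotated start, in the 43 RefSeq windows of 33 mitotic genes. CHR matches gather around a median of -28 and CCAAT matches around -79.

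The match shares were close in members whose groups did and did not overlap. A CHR match was found for 11 of the 14 members with both formaldehyde libraries below and for 15 of the 19 other members with a window. A CCAAT match was found for 11 of 14 and 16 of 19, and both for 9 of 14 and 13 of 19. The 5 windows below belong to members of differing function whose groups did not overlap and that hold both motifs, and are shown so that both elements can be read in place. They are TOP2A (chr17:40417847-40418146, minus strand), NUSAP1 (chr15:41332631-41332930, plus strand), PRC1 (chr15:90994486-90994785, minus strand), CDC25B (chr20:3796060-3796359, plus strand) and KIF23 (chr15:69414099-69414398, plus strand), written 5′ to 3′ along the gene with the CHR and CCAAT matches in capitals.
TOP2A: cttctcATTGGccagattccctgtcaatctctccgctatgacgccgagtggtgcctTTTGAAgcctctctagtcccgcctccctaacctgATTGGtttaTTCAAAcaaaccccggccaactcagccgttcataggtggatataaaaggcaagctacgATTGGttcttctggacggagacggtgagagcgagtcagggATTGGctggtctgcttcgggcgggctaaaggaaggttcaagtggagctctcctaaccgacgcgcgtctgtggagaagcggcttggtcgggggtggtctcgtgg
NUSAP1: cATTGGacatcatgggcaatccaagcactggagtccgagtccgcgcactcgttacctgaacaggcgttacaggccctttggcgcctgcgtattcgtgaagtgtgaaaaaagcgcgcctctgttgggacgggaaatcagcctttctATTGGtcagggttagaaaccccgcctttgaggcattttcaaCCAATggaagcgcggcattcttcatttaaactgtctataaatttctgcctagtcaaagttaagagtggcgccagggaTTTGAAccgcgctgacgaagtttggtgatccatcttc
PRC1: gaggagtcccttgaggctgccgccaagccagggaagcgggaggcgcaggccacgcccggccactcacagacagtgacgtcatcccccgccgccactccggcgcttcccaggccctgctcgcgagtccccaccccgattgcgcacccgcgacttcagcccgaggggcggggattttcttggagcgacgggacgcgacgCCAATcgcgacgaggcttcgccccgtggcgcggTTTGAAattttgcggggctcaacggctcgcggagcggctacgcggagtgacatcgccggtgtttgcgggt
CDC25B: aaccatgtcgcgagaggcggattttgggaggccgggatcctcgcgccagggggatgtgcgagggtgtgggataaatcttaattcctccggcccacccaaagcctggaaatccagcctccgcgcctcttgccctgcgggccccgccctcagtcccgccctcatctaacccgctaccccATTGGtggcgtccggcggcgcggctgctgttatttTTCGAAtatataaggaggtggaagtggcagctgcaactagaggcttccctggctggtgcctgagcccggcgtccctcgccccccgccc
KIF23: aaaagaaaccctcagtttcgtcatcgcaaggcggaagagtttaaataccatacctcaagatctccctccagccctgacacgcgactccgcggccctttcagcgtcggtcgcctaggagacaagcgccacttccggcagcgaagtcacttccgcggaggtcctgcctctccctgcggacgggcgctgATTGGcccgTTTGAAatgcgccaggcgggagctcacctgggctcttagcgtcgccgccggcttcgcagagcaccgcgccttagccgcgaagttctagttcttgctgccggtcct
TOP2A holds 2 CHR and 4 CCAAT matches and NUSAP1 holds 1 and 3, while PRC1, CDC25B and KIF23 hold 1 of each. In PRC1, CDC25B and KIF23 the CHR match lies between the CCAAT match and the start, at -20, -38 and -55, whereas NUSAP1 has it after the start, at 14, and TOP2A has both of its own, at -194 and -151, upstream of 2 of its CCAAT matches. In CDC25B the CHR letters are TTCGAA, and in the others TTTGAA or its complement.

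CDK1 and the proteins that switch it on were lower on average with formaldehyde in 6 of 6 genes, with a median log2 difference of -0.23, -0.60 between the libraries numbered 1 and 0.17 between those numbered 2. For the CDK1 class the median was 0.15 without untreated 1 and -0.59 without untreated 2. CCNB1, the cyclin B1 that carries CDK1 into mitosis, had 68.6 and 60.2 FPKM in formaldehyde 1 and 2, against 104 and 51.5 FPKM in untreated 1 and 2 (log2 difference -0.19 ± 0.38, SE). Untreated 1 was high and untreated 2 was the lowest of the 4, so the groups overlapped. CDC25B, the phosphatase that starts CDK1 activation (hg19, chr20:3776401-3786761), had 46.6 and 68.3 FPKM in formaldehyde 1 and 2, against 74.8 and 69.5 FPKM in untreated 1 and 2 (log2 -0.35 ± 0.26, SE). It was the single gene of the 6 with groups apart, formaldehyde lower, beside 10.7% of all genes tested. Its values in formaldehyde 2 and untreated 2 were nearly level. CDK1 itself, the kinase at the centre of the switch, had 65.95 and 49.98 FPKM in formaldehyde 1 and 2, against 88.03 and 52.6 FPKM in untreated 1 and 2 (log2 -0.24 ± 0.33, SE). CCNA2 (cyclin A2), CCNB2 (cyclin B2) and CDC25C, a further activating phosphatase, spanned 19.5 to 58.2 FPKM in the formaldehyde libraries and 21.2 to 84.8 FPKM in the untreated libraries, with log2 differences of -0.29 to -0.20.

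Of the other mitotic kinases, 2 of 3 were lower on the mean of log2(FPKM + 1) and 3 of 3 on mean FPKM, with a median log2 difference of -0.060, -0.29 between the libraries numbered 1 and 0.17 between those numbered 2. For the kinases the median was -0.10 after rescaling by median ratios, -0.14 after quantile normalization, -0.15 without formaldehyde 1, -0.021 without formaldehyde 2, 0.21 without untreated 1 and -0.33 without untreated 2. AURKB, the Aurora kinase of the chromosomal passenger complex at centromeres (chr17:8108049-8113883), had 90.4 and 108 FPKM in formaldehyde 1 and 2, against 119.8 and 121 FPKM in untreated 1 and 2 (log2 -0.28 ± 0.21, SE). Here the untreated libraries were level and both formaldehyde libraries below them. PLK1, the Polo-like kinase of centrosome maturation and mitotic entry, had 85.3 and 80.8 FPKM in formaldehyde 1 and 2, against 104 and 71.8 FPKM in untreated 1 and 2 (log2 -0.060 ± 0.26, SE), with untreated 2 lowest. AURKA, the Aurora kinase of spindle poles, had 58.8 and 42.3 FPKM in formaldehyde 1 and 2, against 68.5 and 34.8 FPKM in untreated 1 and 2 (log2 0.029 ± 0.39, SE). Both libraries numbered 1 lay above both numbered 2.

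The spindle checkpoint genes were lower on average in 4 of 4, with a median log2 difference of -0.18, -0.50 between the libraries numbered 1 and 0.15 between those numbered 2. For the checkpoint genes the median was 0.13 without untreated 1 and -0.55 without untreated 2. BUB1B, which encodes the checkpoint protein BUBR1 (chr15:40453210-40513337), had 24.9 and 30.2 FPKM in formaldehyde 1 and 2, against 36.4 and 30.8 FPKM in untreated 1 and 2 (log2 -0.28 ± 0.22, SE). The groups were apart by the small gap between formaldehyde 2 and untreated 2. BUB1, a kinase that recruits checkpoint proteins to kinetochores, had 36.9 and 38.6 FPKM in formaldehyde 1 and 2, against 51.1 and 31.6 FPKM in untreated 1 and 2 (log2 -0.089 ± 0.28, SE). MAD2L1, the protein MAD2 that holds CDC20 inactive, had 31.3 and 21.2 FPKM in formaldehyde 1 and 2, against 41.7 and 16.7 FPKM in untreated 1 and 2 (log2 -0.040 ± 0.48, SE), and TTK, the kinase MPS1 that starts the signal, had 16.7 and 17.001 FPKM in formaldehyde 1 and 2, against 29.8 and 16.7 FPKM in untreated 1 and 2 (log2 -0.39 ± 0.31, SE). Both had untreated 1 far above untreated 2, which lay at or below the formaldehyde libraries.

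Kinetochore genes were lower on average in 4 of 4, with a median log2 difference of -0.28, -0.67 between the libraries numbered 1 and 0.12 between those numbered 2. For the kinetochore genes the median was 0.061 without untreated 1 and -0.60 without untreated 2. CENPE, a kinesin that carries chromosomes to the spindle equator (chr4:104026963-104119566), had 7.48 and 8.47 FPKM in formaldehyde 1 and 2, against 12.7 and 8.67 FPKM in untreated 1 and 2 (log2 -0.36 ± 0.25, SE). CENPF, a large coiled-coil protein of the outer kinetochore (chr1:214776532-214837914), had 21.7 and 32.5 FPKM in formaldehyde 1 and 2, against 40.5 and 33.5 FPKM in untreated 1 and 2 (log2 -0.46 ± 0.27, SE). In both, formaldehyde 1 was lowest and formaldehyde 2 just below untreated 2. NDC80, the microtubule-binding subunit, had 49.7 and 59.1 FPKM in formaldehyde 1 and 2, against 71.99 and 46.02 FPKM in untreated 1 and 2 (log2 -0.086 ± 0.29, SE), and its partner NUF2 had 27.3 and 26.4 FPKM in formaldehyde 1 and 2, against 43.3 and 21.9 FPKM in untreated 1 and 2 (log2 -0.19 ± 0.36, SE). For this pair untreated 2 was the lowest library.

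The mitotic kinesins were lower on average in 7 of 7 genes, with a median log2 difference of -0.28, -0.62 between the libraries numbered 1 and 0.0025 between those numbered 2. For the kinesins the median was -0.44 without formaldehyde 2, -0.098 without untreated 1 and -0.46 without untreated 2. KIF20A, a motor needed in cytokinesis (chr5:137514417-137523404), had 53.3 and 55.4 FPKM in formaldehyde 1 and 2, against 91.6 and 57.3 FPKM in untreated 1 and 2 (log2 -0.41 ± 0.29, SE). KIF11, the Eg5 motor that pushes spindle poles apart (chr10:94352825-94415152), had 21.4 and 23.4 FPKM in formaldehyde 1 and 2, against 38.2 and 24.02 FPKM in untreated 1 and 2 (log2 -0.42 ± 0.28, SE). KIF23, the motor of the centralspindlin complex (chr15:69706627-69740764), had 40.5 and 41.2 FPKM in formaldehyde 1 and 2, against 55.2 and 44.7 FPKM in untreated 1 and 2 (log2 -0.27 ± 0.21, SE). In these 3 genes untreated 1 stood alone at the top and the other 3 libraries were close, with both formaldehyde libraries lowest. KIF2C, which takes apart microtubule ends and had the highest mean level of the class, had 57.7 and 79.5 FPKM in formaldehyde 1 and 2, against 83.8 and 76.1 FPKM in untreated 1 and 2 (log2 -0.23 ± 0.24, SE), where formaldehyde 1 alone was low. KIF4A, a motor on chromosome arms, KIF14, which acts in cytokinesis, and KIF18A, which limits chromosome swings, spanned 8.94 to 26.99 FPKM in the formaldehyde libraries and 7.79 to 31.4 FPKM in the untreated libraries, with log2 differences of -0.31 to -0.080.

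Spindle assembly genes had a median log2 difference of -0.45, -0.75 between the libraries numbered 1 and 0.089 between those numbered 2, and 5 of 5 were lower on average. For the spindle assembly genes the median was -0.27 with the highest transcript of each gene in place of the sum, -0.26 without formaldehyde 1 and -0.096 without untreated 1. NUSAP1, a protein that bundles spindle microtubules (chr15:41624892-41673248), had 68.8 and 95.1 FPKM in formaldehyde 1 and 2, against 117 and 122 FPKM in untreated 1 and 2 (log2 -0.55 ± 0.25, SE). On the sum of its transcripts the untreated libraries were level and the formaldehyde libraries both below. The difference was -0.75 log2 units for number 1 and -0.35 for number 2. By its highest transcript in each library, NUSAP1 had 46.9 FPKM in formaldehyde 2 and 45.3 FPKM in untreated 1, so its groups overlapped. ASPM, a spindle pole protein (chr1:197053257-197115824), had 13.2 and 11.4 FPKM in formaldehyde 1 and 2, against 24.2 and 14.8 FPKM in untreated 1 and 2 (log2 -0.59 ± 0.29, SE). Its groups were apart, so it was by definition lower in both number comparisons, and formaldehyde 2 was its lowest library. TPX2, which activates AURKA on the spindle, had 84.9 and 103 FPKM in formaldehyde 1 and 2, against 109.99 and 88.1 FPKM in untreated 1 and 2 (log2 -0.076 ± 0.24, SE). HMMR, a spindle-associated hyaluronan receptor, and DLGAP5, which steadies kinetochore fibres, spanned 17.3 to 41.5 FPKM in the formaldehyde libraries and 21.2 to 50.1 FPKM in the untreated libraries, with log2 differences of -0.45 to -0.15.

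The genes of anaphase entry had 2 of 3 lower on average, with a median log2 difference of -0.061. The median was -0.30 between the libraries numbered 1 and 0.26 between those numbered 2. In 0 of 3 were the groups apart, beside 10.7% of all genes tested with formaldehyde lower and 16.2% with formaldehyde higher. For the anaphase genes the median was -0.10 after rescaling by median ratios, -0.17 after quantile normalization, 0.13 without formaldehyde 1, -0.20 without formaldehyde 2, 0.069 without untreated 1 and -0.21 without untreated 2. PTTG1, the securin that restrains separase until anaphase, had the highest mean level of the 40, at 262 and 343 FPKM in formaldehyde 1 and 2, against 343 and 286 FPKM in untreated 1 and 2 (log2 -0.061 ± 0.26, SE). UBE2C, the ubiquitin-conjugating enzyme of the anaphase-promoting complex, had 196 and 211 FPKM in formaldehyde 1 and 2, against 242 and 209 FPKM in untreated 1 and 2 (log2 -0.15 ± 0.22, SE). In both, formaldehyde 2 lay at or above untreated 2. CDC20, which activates that complex and is the checkpoint's target, had 109.6 and 121 FPKM in formaldehyde 1 and 2, against 133 and 91.1 FPKM in untreated 1 and 2 (log2 0.064 ± 0.27, SE), with untreated 2 lowest and untreated 1 highest.

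Midzone and cytokinesis genes were lower on average in 5 of 5, with a median log2 difference of -0.19, -0.51 between the libraries numbered 1 and 0.12 between those numbered 2. For the midzone and cytokinesis genes the median was 0.12 without untreated 1 and -0.48 without untreated 2. PRC1, which crosslinks antiparallel microtubules of the midzone (chr15:91509268-91537804), had 64.3 and 73.95 FPKM in formaldehyde 1 and 2, against 91.7 and 86.5 FPKM in untreated 1 and 2 (log2 -0.36 ± 0.20, SE). ANLN, the anillin scaffold of the contractile ring (chr7:36429432-36493400), had 48.6 and 41.8 FPKM in formaldehyde 1 and 2, against 70.7 and 50.998 FPKM in untreated 1 and 2 (log2 -0.41 ± 0.25, SE). Both had groups apart and so were by definition lower with formaldehyde in each number comparison. The differences were -0.51 and -0.22 for PRC1 and -0.53 and -0.28 for ANLN. BIRC5, the passenger complex subunit survivin, had 62.97 and 55.8 FPKM in formaldehyde 1 and 2, against 78.96 and 45.6 FPKM in untreated 1 and 2 (log2 -0.018 ± 0.32, SE), with untreated 2 lowest. ECT2, the exchange factor that activates RhoA at the cleavage site, and RACGAP1, the centralspindlin partner of KIF23, spanned 37.6 to 55.2 FPKM in the formaldehyde libraries and 34.5 to 86.8 FPKM in the untreated libraries, with log2 differences of -0.19 to -0.18.

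The last class joins chromosome proteins and a transcription factor, with a median log2 difference of -0.45, -0.75 between the libraries numbered 1 and -0.12 between those numbered 2. For the last class the median was -0.21 without untreated 1. TOP2A, the topoisomerase that untangles sister chromatids (chr17:38544773-38574202), had 82.5 and 93.6 FPKM in formaldehyde 1 and 2, against 142 and 102 FPKM in untreated 1 and 2 (log2 -0.45 ± 0.25, SE). MKI67, the Ki-67 protein that coats mitotic chromosomes and marks proliferating cells (chr10:129894925-129924468), had 31.2 and 41.1 FPKM in formaldehyde 1 and 2, against 53.3 and 52.01 FPKM in untreated 1 and 2 (log2 -0.54 ± 0.22, SE). The untreated libraries of MKI67 were nearly level while both formaldehyde libraries were lower, and its number comparisons were -0.75 and -0.33. FOXM1, the factor that drives many genes of this list in G2, had 52.4 and 65.3 FPKM in formaldehyde 1 and 2, against 70.4 and 60.7 FPKM in untreated 1 and 2 (log2 -0.16 ± 0.22, SE), and its groups overlapped.

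Longer members had more negative differences, a pattern that was looked for after the values were seen. Over the 40 genes the Spearman correlation of the log2 difference with the longest transcript was -0.56, with -0.54 for the libraries numbered 1 and -0.44 for those numbered 2, and over all 12407 genes tested it was -0.14. These are descriptions over genes measured in the same 4 libraries. The 9 members of 4000 nt and over, among them ASPM, CENPE, CENPF, MKI67 and TOP2A, had a median of -0.42, beside -0.019 for the 3725 genes tested of that length. The 8 members under 2000 nt, among them PTTG1, CDC20 and AURKB, had -0.17, beside 0.081 for 3811 genes. The 9 members of 2000 to under 3000 nt had -0.19 and the 14 of 3000 to under 4000 nt -0.23. Between the libraries numbered 1, members under 2000 nt had a median of -0.40 and those of 4000 nt and over -0.75. All genes tested of those lengths had 0.0044 and -0.083. Between the libraries numbered 2, the short members were higher, at 0.23, and the long ones near level, at -0.043. All genes tested of those lengths had 0.15 and 0.053. The part of transcript length in the group difference was not tested.

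**Figure D5:**
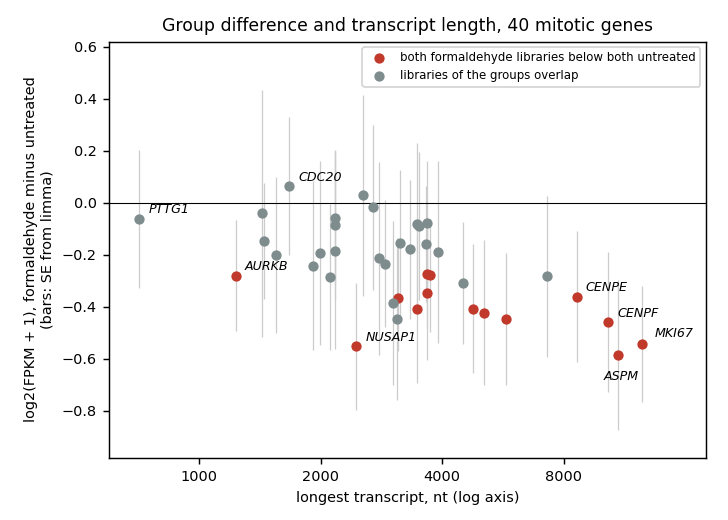
Difference in log2(FPKM + 1), formaldehyde minus untreated, of each mitotic gene against its longest transcript in nt (log axis); bars are limma's SE, and red marks the 14 genes with both formaldehyde libraries below both untreated libraries. The lowest points, ASPM, NUSAP1 and MKI67, include the longest transcripts, and PTTG1 and CDC20 lie near 0.

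Transcript estimates within a gene varied with the replicate number in some members. The CDK1 transcript NM_033379 was put at 20.8 FPKM in formaldehyde 2 and 21.5 FPKM in untreated 2, or 41.5% and 40.8% of the gene, and at under 0.01% in formaldehyde 1 and in untreated 1. The main CDK1 transcript NM_001786 held 95.8% and 56.3% in formaldehyde 1 and 2, against 94.2% and 54.7% in untreated 1 and 2. FOXM1 showed the same split: NM_001243088 stood at 12.1 and 0.000479 FPKM with formaldehyde and 11.8 and 1.77 FPKM without. The NUSAP1 transcript NM_016359 stood at 4.08 and 0.0166 FPKM with formaldehyde and 27.6 and 0.000628 FPKM without. The shorter of the Ki-67 transcripts, NM_001145966, held a share of 71.8% and 73.5% with formaldehyde, against 68.2% and 71.7% without. These are the authors' estimates of how shared fragments divide among transcripts, and the labels do not say what the replicate number stands for.

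The wider machinery of division was read from 5 further lists, and 0 of their 114 tested genes were called by limma or had an unadjusted p under 0.05. Of these, 84 were lower and 30 higher with formaldehyde, where 44.9% of all genes tested were lower, with a median of -0.14. Both formaldehyde libraries lay below both untreated for 25, beside 10.7% of all genes, and above for 0, beside 16.2%. By number, 103 were lower with formaldehyde in the libraries numbered 1, beside 53.5% of all genes, and 47 in those numbered 2, beside 37.3%. Untreated 1 was the highest library for 86, beside 29.4%.

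Condensin and cohesin genes, which shape chromosomes and hold sister chromatids together, were lower on average in 16 of 20, with a median of -0.24 and groups apart in 7, all with formaldehyde lower, beside 10.7% of all genes tested. SMC4, a core subunit of condensin, had 79.9 and 113 FPKM in formaldehyde 1 and 2, against 142 and 119 FPKM in untreated 1 and 2 (log2 -0.44 ± 0.27, SE). NCAPH, another condensin subunit, had 17.2 and 17.1 FPKM in formaldehyde 1 and 2, against 25.03 and 19.01 FPKM in untreated 1 and 2 (log2 -0.33 ± 0.22, SE). Of the other kinetochore and passenger genes, 25 of 34 were lower, with a median of -0.11 and groups apart, formaldehyde lower, in 7, beside the same 10.7%. KNTC1, a subunit of the complex that brings dynein to kinetochores, had 9.84 and 11.9 FPKM in formaldehyde 1 and 2, against 15.6 and 14.98 FPKM in untreated 1 and 2 (log2 -0.46 ± 0.20, SE), and SPC24, a subunit of the NDC80 complex, had 22.2 and 31.9 FPKM in formaldehyde 1 and 2, against 35.8 and 40.03 FPKM in untreated 1 and 2 (log2 -0.49 ± 0.25, SE). In both the untreated libraries were close to each other and the formaldehyde libraries below.

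Of the other spindle, kinesin and cytokinesis genes, 27 of the 31 tested were lower, with a median of -0.21 and groups apart, formaldehyde lower, in 9, beside 10.7% of all genes; KIF18B, the other gene of the 32 listed, was not analysed here. KIF15, a motor that helps keep the spindle bipolar, had 6.297 and 8.59 FPKM in formaldehyde 1 and 2, against 11.98 and 10.3 FPKM in untreated 1 and 2 (log2 -0.53 ± 0.23, SE), and SPAG5, the spindle protein astrin, had 36.2 and 39.9 FPKM in formaldehyde 1 and 2, against 58.6 and 45.6 FPKM in untreated 1 and 2 (log2 -0.43 ± 0.22, SE). In the anaphase-promoting complex list, 2 of 17 genes had groups apart, formaldehyde lower, beside 10.7% of all genes. The list of that complex was divided, with 9 genes higher and 8 lower and a median of 0.0073. Its inhibitor FBXO5 (EMI1) had 19.8 and 24.8 FPKM in formaldehyde 1 and 2, against 28.4 and 24.9 FPKM in untreated 1 and 2 (log2 -0.25 ± 0.22, SE), and its subunit ANAPC13 had 30.8 and 16.2 FPKM in formaldehyde 1 and 2, against 22.3 and 12.04 FPKM in untreated 1 and 2 (log2 0.43 ± 0.43, SE). The DREAM and MYB-MuvB factors, which control G2/M promoters, had 8 of 12 lower and a median of -0.044. Groups were apart in 0 of the 12, beside 10.7% of all genes with formaldehyde lower and 16.2% with formaldehyde higher. The repressor E2F4 had 37.2 and 25.1 FPKM in formaldehyde 1 and 2, against 25.6 and 19.4 FPKM in untreated 1 and 2 (log2 0.44 ± 0.28, SE), and E2F5, a second repressor of the family, had 1.64 and 1.501 FPKM in formaldehyde 1 and 2, against 1.54 and 0.523 FPKM in untreated 1 and 2 (log2 0.39 ± 0.33, SE).

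The 9 brakes on the cell cycle had 4 higher and 5 lower, with groups apart in 2 higher and 3 lower, beside 16.2% and 10.7% of all genes tested. CDKN1A, the inhibitor p21 that halts cyclin-dependent kinases after DNA damage, had 355 and 49.5 FPKM in formaldehyde 1 and 2, against 31.8 and 48.9 FPKM in untreated 1 and 2 (log2 1.73 ± 0.94, SE). Formaldehyde 1 alone was high, at 3.14 log2 units above the untreated mean, while formaldehyde 2 was 0.32 above it. CDKN2B, the inhibitor p15 of CDK4 and CDK6, had 6.01 and 17.03 FPKM in formaldehyde 1 and 2, against 28.3 and 32.7 FPKM in untreated 1 and 2 (log2 -1.48 ± 0.48, SE; unadjusted p = 0.0267, adjusted p = 0.9999, limma). CDKN2C, the related inhibitor p18, had 21.98 and 46.8 FPKM in formaldehyde 1 and 2, against 56.7 and 57.2 FPKM in untreated 1 and 2 (log2 -0.80 ± 0.38, SE). For both inhibitors formaldehyde 1 was lowest and the untreated libraries were close to each other.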

How the data were processed

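The deposited values are FPKM, estimated by the authors per transcript and library, per the file headers and attributes. According to the submitters' processing notes, FastQC 0.10.0, STAR 2.5.2 and Cufflinks 2.0.2 were used, and hg19 (GRCh37) was the build. Whether reads were trimmed, how multi-mapped reads were treated and whether strand was used is not stated there, so overlapping antisense genes cannot be told apart. Sample titles named the files. Of 40255 transcripts per file, 894 with no gene name (1.07% to 1.31% of FPKM) were left out, and the others were summed by gene name. Depth was computed from the deposited coverage and intervals with a read length of 51 nt. Coordinates of genes are those of the files (hg19, 1-based).

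Genes of at least 1 FPKM on average entered a linear model of log2(FPKM + 1) in limma 3.58.1 (R 4.3.3; mean trend in eBayes), two-sided, for formaldehyde against untreated with no covariate and with Benjamini-Hochberg adjustment over all of them (threshold 0.05). The pseudocount shrinks differences of low genes. The fit was tested on simulated data in which the changed genes differed far more than the members do. It does not show whether differences as small as those of the members would be called. Values per library are given for members whose groups do not overlap and for the 2 members of highest mean FPKM in each class, and those of CDK1, AURKA, MAD2L1, TTK, NUF2 and CDC20 were added after the values were seen. In each further list the 2 genes of largest absolute moderated t are named, and CDKN1A. Promoters come from RefSeq (GRCh38.p14), another build than that of the files, and were joined by symbol only; AURKA, TTK, TPX2, UBE2C, BIRC5, RACGAP1 and FOXM1 had no window. Tables and figures were made with Python 3.11.15 and matplotlib 3.10.9. The members, the classes and the lists were chosen with earlier results of these data known. Alternatives changed the pseudocount, the filter, the scaling, the length limit, the transcript sum, the variance model, the replicate block and each library in turn. The result for 1 marker gene is not reported here.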

Additional observations from a re-analysis of the deposited data

How the results depend on the processing

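No alternative called a mitotic gene. The lowest adjusted p over the alternatives was 0.626, in the fit with the replicate block. Of all genes, 19 were called, against 0 with no filter on low values (956 at an unadjusted p under 0.05), 1 among genes of at least 300 nt, 29 with the replicate block and 31 to 55 when a library was left out; the cause was not tested. Members with each formaldehyde library below each untreated one numbered 14, beside 10.7% of all genes. They numbered 20 after rescaling by median ratios, beside 13.4%, and 20 after quantile normalization, beside 12.6%. Leaving out a library gave 14 (without untreated 1) to 39 (without untreated 2), beside 28.1% and 34.7%. Members with the reverse numbered 0, beside 16.2%, and 16 without untreated 1, beside 47%. Without formaldehyde 1, 15 members were below and 1 above. When a gene's top transcript replaced the sum, 13 were below, with NUSAP1 no longer among them. For these last 2 settings the share of all genes was not counted, so their counts cannot be set against it. The median of the members was -0.24, -0.28 after rescaling by median ratios and -0.31 after quantile normalization, and -0.47 to -0.012 with a library left out, the last without untreated 1. Over all genes the median was 0.030, -0.0069 and -0.00069 in the same order. With a library left out it was -0.017 to 0.089, the last again without untreated 1. AURKA turned to -0.012 after rescaling by median ratios and -0.051 after quantile normalization, and CDC20 to -0.039 after the last. The sign of these members turned when some library was left out, with ranges of -0.61 to 0.13 for CDK1, -0.71 to 0.28 for CCNA2, -0.69 to 0.32 for CCNB1, -0.57 to 0.17 for CCNB2, -0.33 to 0.21 for PLK1, -0.45 to 0.51 for AURKA, -0.43 to 0.25 for BUB1, -0.67 to 0.59 for MAD2L1, -0.79 to 0.017 for TTK, -0.40 to 0.23 for NDC80, -0.67 to 0.28 for NUF2, -0.67 to 0.11 for KIF14, -0.46 to 0.30 for KIF18A, -0.23 to 0.083 for TPX2, -0.44 to 0.13 for HMMR, -0.21 to 0.33 for CDC20, -0.25 to 0.13 for PTTG1, -0.41 to 0.37 for BIRC5, -0.65 to 0.27 for ECT2 and -0.48 to 0.12 for RACGAP1. Directions of the other members held under every alternative run. Libraries of the same number deviated together (r = 0.25 over 12407 genes), but with 2 pairs and no label for the number they share only a number. The replicate block left 0 members called. At an unadjusted p under 0.05 it had 3 of the 40 (ASPM, MKI67 and NUSAP1), beside 915 of all 12407 genes. The share of members was thus close to that of all genes. Rescaling by median ratios and quantile normalization each had 1 of the 40 at that threshold, beside 334 and 331 of all 12407 genes. Each value of a member with 1 transcript rested on at least 435 fragments.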
